A study of Mus musculus with 6 samples.

Results

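The serine proteases of epithelial cell surfaces and the Kunitz-type inhibitors that hold them in check were described in 7-day-old mice, in cells of the bladder epithelium. The group was chosen by gene name, with earlier results of these data known. It held 9 listed genes (St14, Prss8, Prss22, Tmprss2, Tmprss4, Hpn, Spint1, Spint2 and F2rl1), read through every probe set annotated to 1 of them alone. This gave 12 of the 45101 probe sets of an Affymetrix mouse array, for 8 of the 9 genes. F2rl1, the protease-activated receptor of the cascade, was not analysed here. Each of the 6 arrays measured RNA amplified in 2 rounds from dissociated bladder epithelium, 3 arrays from DsRed-positive cells and 3 from DsRed-negative cells, numbered 1, 2 and 5 in each group. All 6 samples share the background that the labels give: FVB/N x C57BL/6 mice at P7, labelled male, with B6;129P-Upk1btm1Zhang/J as the reported gene, in which Upk1b encodes a uroplakin of the urothelial surface. No further agent is labelled. The sample titles join the word uroplakin, the array number and +ve or -ve. Beyond these titles, the labels state neither how cells were sorted by DsRed nor which cells DsRed marks. Samples were not pooled, but separate animals are not stated either, so each p-value refers to the spread over these samples, and precision is limited by the number of arrays.

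The cells differed in their markers as well as in the reporter. The urothelial marker list includes uroplakin genes, the family named in the sample titles. Among them is Upk1b, the gene named in the reported allele of all samples, so these markers are not independent of the labels. All 8 urothelial and all 6 general epithelial markers were higher in DsRed-positive cells, with mean log2 levels of 13.97 to 14.24 against 9.60 to 10.83 for the urothelial list and 16.14 to 16.39 against 12.11 to 13.12 for the epithelial list. All 7 fibroblast and matrix markers were lower (9.90 to 10.49 against 16.03 to 16.34), as were 5 of 6 leukocyte markers (7.99 to 8.53 against 11.75 to 12.09), 4 of 5 tested smooth muscle markers and 3 of 4 tested endothelial markers. The DsRed-negative cells, which carry the label bladder epithelial cell too, thus gave strong matrix signal. None of the 14 urothelial and epithelial markers lay at or below the level of the control probe sets on all 3 DsRed-negative arrays. What part these other cell types had in the values below was not tested, and in such bulk samples fewer cells of a type and less RNA per cell cannot be told apart. Both arrays numbered 1 went against the label male: Xist, the transcript of the inactive X chromosome, had log2 signals of 15.48 and 15.08 there and 8.08 to 8.89 on the other 4, while the Y-linked Eif2s3y had 5.44 and 6.32 there and 11.78 to 12.93 elsewhere. Results are therefore also given without these arrays.

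Membrane-anchored serine proteases are made as inactive precursors and act at or near the cell surface of epithelia. Matriptase, the product of St14, and prostasin, the product of Prss8, activate each other in epithelial cells, and their activity acts on tight junctions, on the epithelial sodium channel and on growth factor precursors. The inhibitors encoded by Spint1 and Spint2 sit in the same membranes, carry Kunitz domains and block matriptase, prostasin and hepsin. Protease-activated receptors are G-protein-coupled receptors switched on when such proteases cut their extracellular end.

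Most genes of the cascade were higher in the DsRed-positive cells. Of the 8 member genes, each represented by its brightest probe set, 7 were higher in DsRed-positive cells, none was lower and 1, Hpn, did not pass. Of all 14222 genes tested, 9.21% were called higher and 11.3% lower, by limma with Benjamini-Hochberg adjustment over 30175 probe sets and a threshold of 0.05. Because the members were chosen with earlier results of these data known, shares of all genes are printed for scale and the set was not tested. The called members rose by 2.37 to 4.52 on the log2 scale, and the median over the 8 genes was 3.08, against 0.04 over all genes tested. By probe set, 10 of the 11 tested were higher, where 8.63% of all tested probe sets were, and 1 Tmprss2 probe set was too dim to be tested. In all 8 genes every DsRed-positive array lay above every DsRed-negative array, as it did for 22.0% of all genes. Without both arrays numbered 1, 5 of the 8 remained called higher (St14, Prss8, Prss22, Tmprss2 and Spint1), where 3.48% of all genes were called higher and 5.49% lower, and the median was 3.36.

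**Figure D1:**
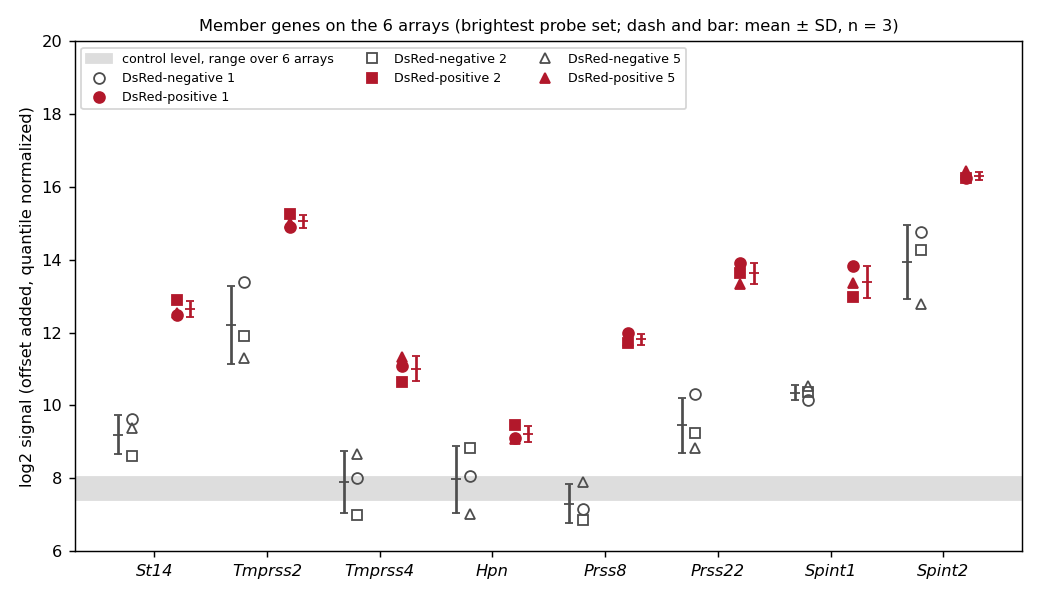
Log2 signal of the 8 member genes (x axis) on each array, with an offset added and quantile normalized (y axis); filled red symbols are DsRed-positive and open grey symbols DsRed-negative arrays 1 (circle), 2 (square) and 5 (triangle), beside each group's mean ± SD (n = 3), and the grey band spans the 6 arrays' control levels (7.41 to 8.03). The groups do not overlap for any of the 8 genes, and the DsRed-negative signals of Prss8 lie in or below the band; levels of different probe sets are not on a common scale.

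St14 encodes matriptase, a type II transmembrane protease that many epithelia use to start the cascade. DsRed-positive arrays 1, 2 and 5 had a deposited signal of 6258, 7918 and 6040, and DsRed-negative arrays 1, 2 and 5 had 770.1, 455.2 and 696.4. Every DsRed-positive array was high and every DsRed-negative array low, with no overlap and with signal above the control level on all 6. On the normalized log2 scale the level was 12.64 ± 0.23 (SD, n = 3) against 9.20 ± 0.53, a change of 3.45 ± 0.38 (SE) or 10.9-fold (adjusted p = 0.00105). The change ranked 283rd among the 14222 genes.

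Prss8 encodes prostasin, which is held to the membrane by a lipid anchor and cuts the epithelial sodium channel. In the same order of arrays, deposited signals were 4426, 3317 and 3482 in DsRed-positive cells and 127.4, 95.7 and 238.1 in DsRed-negative cells. All 3 DsRed-negative values lay at or below the control level of their array, so that group gives a bound: Prss8 was at least 16.1-fold higher in DsRed-positive cells (fitted change 4.52 ± 0.38 SE, adjusted p = 3.25e-04). Its fitted change was the largest of the 8 genes and ranked 96th of all genes tested.

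Prss22 encodes a tryptase made by epithelia. DsRed-positive arrays 1, 2 and 5 gave 15068, 13305 and 10408, against 1228, 672.2 and 482.1 in DsRed-negative cells. The lowest DsRed-positive array was thus well above the highest DsRed-negative one, array 1. The log2 level was 13.62 ± 0.29 (SD, n = 3) against 9.46 ± 0.76, a change of 4.17 ± 0.45 (SE) or 18.0-fold (adjusted p = 9.30e-04).

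Tmprss2 encodes a type II transmembrane protease known from prostate, where androgens induce it, and from airway and gut epithelium. On its brightest probe set DsRed-positive arrays 1, 2 and 5 read 25467, 39614 and 32238, whereas DsRed-negative arrays read 10618, 3624 and 2406. DsRed-negative array 1 stood above the other DsRed-negative arrays but below every DsRed-positive one. The change was 2.85 ± 0.55 (SE) on the log2 scale, or 7.21-fold (adjusted p = 0.0110). Both other tested probe sets gave larger changes, 4.20 ± 0.63 (adjusted p = 0.00372) and 4.52 ± 0.74 (adjusted p = 0.00553), and on these too array 1 was the highest DsRed-negative array, with 3851 against 1599 and 817.3, and with 1279 against 634.0 and 133.8. The second of these was at or below the control level on 1 DsRed-negative array. The fourth probe set, which was not tested, had overlapping groups, from 14.3 to 325.8 in DsRed-positive and from 16.98 to 201.3 in DsRed-negative arrays. The size of the Tmprss2 change therefore depended on the probe set, from 7.21-fold to 22.9-fold among those tested.

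Tmprss4, another type II transmembrane protease, was higher in DsRed-positive cells too. It read 2249, 1470 and 2558 in DsRed-positive arrays 1, 2 and 5 against 254.4, 114.0 and 429.3 in DsRed-negative arrays, of which array 2 lay below the control level. The groups did not overlap, and the change was 3.12 ± 0.49 (SE) or 8.72-fold (adjusted p = 0.00448). Without both arrays numbered 1 the change was 3.11 and did not pass (adjusted p = 0.0794).

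Hpn encodes hepsin, a protease that is abundant in liver and kidney. DsRed-positive arrays 1, 2 and 5 read 422.2, 573.5 and 471.2, against 267.2, 523.1 and 108.8 for DsRed-negative arrays. On the normalized scale the lowest DsRed-positive log2 signal was 9.08 and the highest DsRed-negative one 8.82, in array 2, so the groups were narrowly apart, whereas the deposited values overlapped. The change of 1.25 (95% interval 0.10 to 2.39 from the fit, unadjusted) had an adjusted p = 0.130 and did not pass. Without DsRed-negative array 2 it was 1.71 and passed (adjusted p = 0.0426), so that array decided the call.

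**Figure D2:**
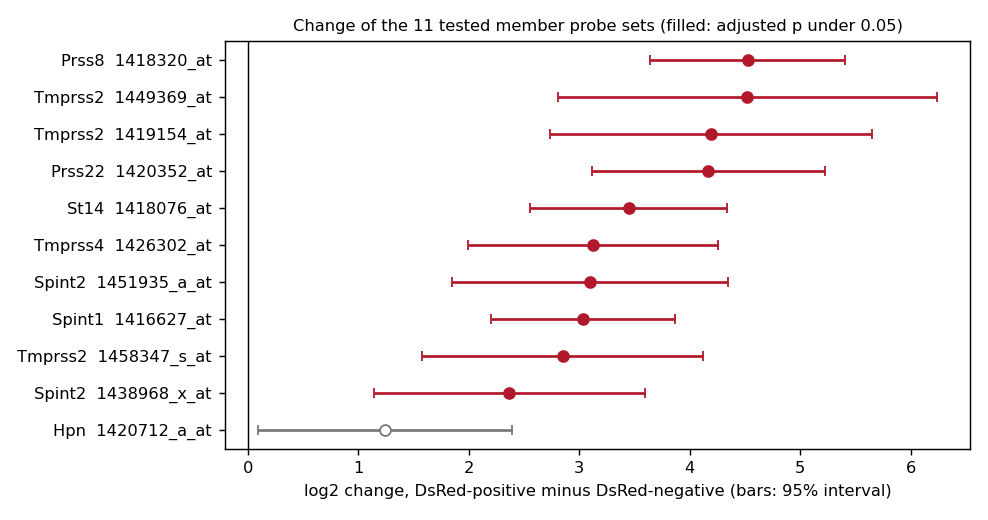
Log2 change (DsRed-positive minus DsRed-negative, x axis) of the 11 tested member probe sets (y axis, gene and probe set), with the 95% interval of the fit as bars and filled symbols where the adjusted p was under 0.05. Changes run from 1.25 for Hpn, the open symbol, to 4.52 for Prss8.

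Spint1, the hepatocyte growth factor activator inhibitor that pairs with matriptase, was high in DsRed-positive cells as well. It read 14448, 8233 and 10619 on DsRed-positive arrays 1, 2 and 5, whereas DsRed-negative arrays read 1106, 1352 and 1470 and lay close together. The log2 level was 13.38 ± 0.43 (SD, n = 3) against 10.35 ± 0.20, a change of 3.03 ± 0.36 (SE) or 8.19-fold (adjusted p = 0.00131).

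Spint2, the related inhibitor with a wider reach over tissues and proteases, had its brightest probe set at 45134, 74466 and 80733 in DsRed-positive arrays 1, 2 and 5. The DsRed-negative arrays gave 28040, 19596 and 6697, so array 1 came closest to the DsRed-positive range and array 5 was the lowest. The change was 2.37 ± 0.53 (SE) or 5.16-fold (adjusted p = 0.0204), the smallest of the called members. This call was lost without DsRed-positive array 1, 2 or 5 (adjusted p = 0.0660, 0.0627 and 0.0699), and without both arrays numbered 1 (adjusted p = 0.0652). The second Spint2 probe set changed by 3.10 ± 0.54 (adjusted p = 0.00721) and kept its call in each of those fits.

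Whether protease and inhibitor changed unequally was examined in 3 pairs chosen after their values were seen. On the brightest probe sets, the change of Spint1 exceeded that of Spint2 by 0.67 on the log2 scale. The changes of St14 exceeded those of Spint1 and Spint2 by 0.41 and 1.08. In a two-sided exact permutation test of the per-array differences the 3 pairs gave p = 0.5, 0.5 and 0.3, each 0.5 after adjustment over the 3 pairs. The smallest p that 3 arrays against 3 can give is 0.1, so the test could not have passed in any case. The sign of the difference between the inhibitors also depended on the probe set. The second Spint2 probe set changed by 3.10, against 3.03 for Spint1 and 3.45 for St14.

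Promoter sequences were read for Tmprss2, Spint1, Spint2 and Hpn, of which Hpn was not called. The called members St14, Prss8, Prss22 and Tmprss4 had no sequence among those used here. RefSeq sequences (GRCm38.p6, 250 bases before to 50 after an annotated start) were matched for 4 of the 9 listed genes, in 5 promoters. Those of both inhibitors and of Tmprss2 are printed, 5′ to 3′ on the strand of the gene, because the inhibitor promoters held the same element and the Tmprss2 promoter did not. Capitals mark the GC box GGGCGG, read on either strand, which Sp and Krüppel-like factors are known to bind.
Spint1 (chr2:119237110-119237409, plus strand): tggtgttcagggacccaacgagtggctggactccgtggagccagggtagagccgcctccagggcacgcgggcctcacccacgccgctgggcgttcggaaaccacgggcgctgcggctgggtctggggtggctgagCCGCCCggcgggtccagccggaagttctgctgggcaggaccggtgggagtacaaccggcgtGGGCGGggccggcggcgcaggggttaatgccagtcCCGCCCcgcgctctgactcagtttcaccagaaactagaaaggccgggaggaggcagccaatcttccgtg
Spint2 (chr7:29281928-29282227, minus strand): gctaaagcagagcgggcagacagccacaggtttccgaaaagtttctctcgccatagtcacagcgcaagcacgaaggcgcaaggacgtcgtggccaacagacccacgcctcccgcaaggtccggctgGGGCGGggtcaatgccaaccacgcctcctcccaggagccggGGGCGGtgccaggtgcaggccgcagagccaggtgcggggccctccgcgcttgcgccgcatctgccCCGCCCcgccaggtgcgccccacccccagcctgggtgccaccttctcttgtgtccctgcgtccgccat
Tmprss2 (chr16:97611146-97611445, minus strand): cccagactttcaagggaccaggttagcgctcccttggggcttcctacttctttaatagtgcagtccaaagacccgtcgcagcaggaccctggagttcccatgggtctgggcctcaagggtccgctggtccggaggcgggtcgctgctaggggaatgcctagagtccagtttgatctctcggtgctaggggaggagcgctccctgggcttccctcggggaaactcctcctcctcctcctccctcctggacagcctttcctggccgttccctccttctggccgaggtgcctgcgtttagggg

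The Spint1 and Spint2 promoters each held 3 GC boxes, as did 1 of the 2 Hpn promoters, while the Tmprss2 promoter and the other Hpn promoter held none. Of 32851 promoters of this length in the table, 35.7% held at least 1. The Spint1 and Spint2 promoters were rich in CpG, with 28 and 26 CpG dinucleotides against a median of 7 over all promoters, and Tmprss2 had 13. The Grainyhead motif AACNGGTT was in none of the 5 promoters and in 2.09% of all. The AP-1 motif TGANTCA occurred in the Spint1 promoter alone among the 5, at bases 245 to 251 of the printed sequence, and in 7.81% of all promoters. The ETS motif AGGAAG was in the Tmprss2 promoter and in 1 Hpn promoter, and in 35.4% of all. Only this form was searched, so other sequences that ETS factors bind are not covered, in the Spint1 promoter or elsewhere. Neither the GATA motif AGATAA nor the Forkhead motif TGTTTAC was in any of the 5 (11.2% and 3.65% of all). Both strands were searched, and a match describes these letters in this window, not a bound site.

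**Figure D3:**
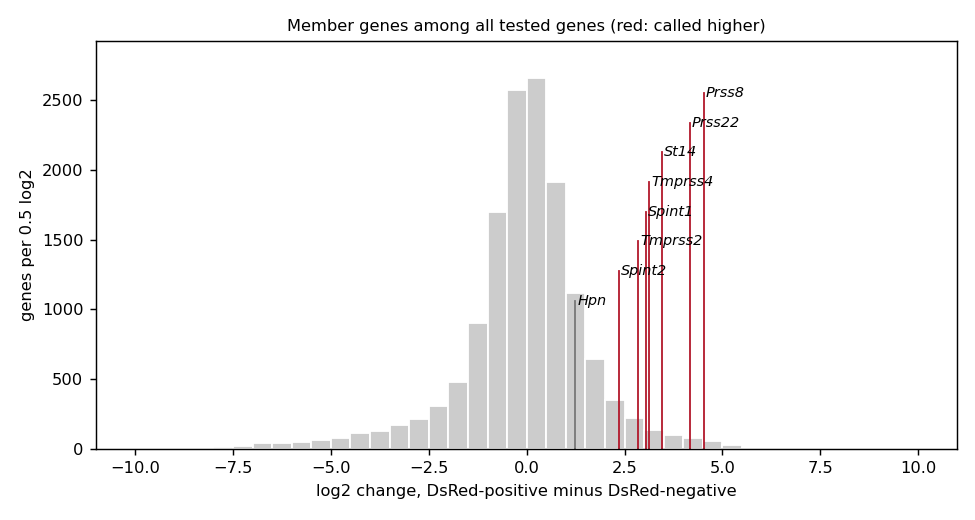
Number of tested genes per 0.5 of log2 change (y axis) against the log2 change, DsRed-positive minus DsRed-negative (x axis), for 14222 genes, with a line at each member gene; line height carries no value. The 7 called members (red) lie between 2.37 and 4.52, and Hpn (grey) lies at 1.25.

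On the brightest probe set of each gene, the members differed in how much signal was left in the DsRed-negative cells. Expressed as a share of the mean deposited signal of the 3 DsRed-positive arrays, Tmprss2 stood at 32.7%, 11.2% and 7.42% in DsRed-negative arrays 1, 2 and 5. Spint2 stood at 41.99%, 29.3% and 10.03%, and Prss22 at 9.50%, 5.20% and 3.73%. These 3 genes were highest in array 1 and lowest in array 5. Other tested probe sets gave lower shares in that order of arrays. They were 13.2%, 5.50% and 2.81%, and 11.3%, 5.58% and 1.18%, for Tmprss2, and 24.3%, 10.6% and 5.81% for Spint2. The size of a share thus depended on the probe set. The same order of arrays was seen in 4 of the 8 urothelial markers, Upk1b (11.9%, 5.59% and 3.46%), Upk3b, Krt20 and the basal keratin Krt5 (22.9%, 16.7% and 9.76%), and not in Upk1a, Upk2, Upk3a and Trp63. Of the 6 general epithelial markers, 4 had it (Epcam, Krt8, Krt18 and Krt19), and Cdh1 and Krt7 did not. The mean log2 level of the urothelial list was 10.83, 10.32 and 9.60 in arrays 1, 2 and 5.

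The other members did not follow that order. St14 stood at 11.4%, 6.75% and 10.3%, and Spint1 at 9.96%, 12.2% and 13.2%. Prss8 had 3.40%, 2.56% and 6.36% and Tmprss4 12.2%, 5.45% and 20.5%, both highest in array 5, where the control level was 8.03 and their log2 signals were 7.89 and 8.67. Hpn had 54.6%, 107% and 22.3%. With 3 arrays in the group these orders were not tested, and what part the urothelial signal of each array had in them was not tested.

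**Figure D4:**
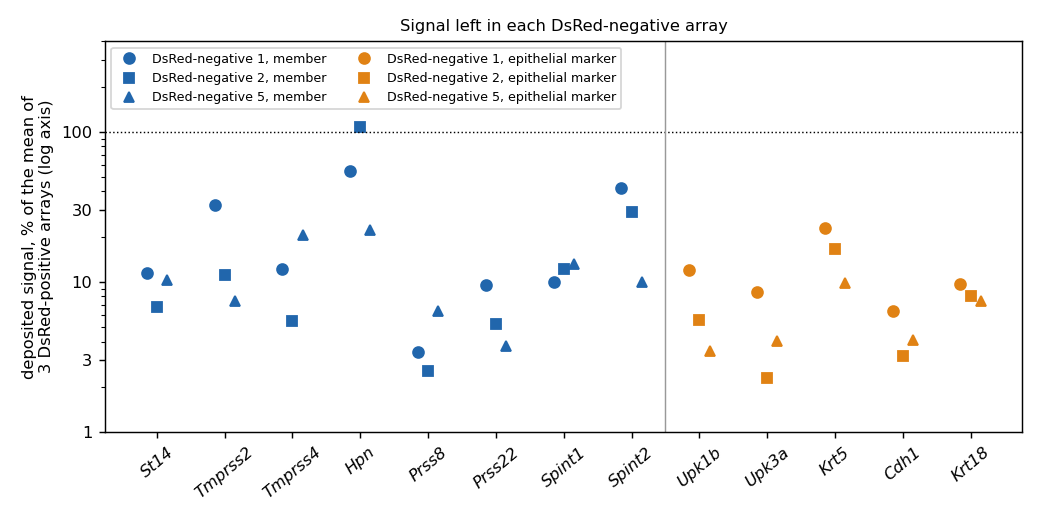
Deposited signal of each DsRed-negative array as a percent of the mean of the 3 DsRed-positive arrays (y axis, log scale) for the 8 member genes (blue) and 5 epithelial markers (orange); circle, square and triangle are arrays 1, 2 and 5, and the dotted line marks 100%. Each gene is shown by its brightest probe set. Spint2 stands at 10.03% to 41.99% (5.81% to 24.3% on its second probe set, not shown), and Hpn reaches 107% in array 2. Prss8 stands at 2.56% to 6.36%, from signals at or below the control level.

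Genes whose pattern over the 6 arrays was most like that of a member were found by Pearson correlation of normalized log2 levels. Since the arrays fall into the same groups for many genes, 106 to 672 genes had an r above 0.95 with a given member, and the ranking is a description without a test. Nipal4, Spag1 and Mal2 were nearest to St14 (r from 0.997 to 0.999), and Tlcd4, Rars and Tm2d3 to Prss8 (0.997 to 0.9995). Lima1, Plet1 and Entpd3 were nearest to Prss22 (each 0.999), and Gnpnat1, the keratin gene Krt8 and the tight junction gene Ocln to Tmprss2 (0.996 to 0.997). Tmprss4 was most like Ppfibp2, Slain1 and Rfk (0.996 to 0.998), Spint2 most like Spin4, Slco3a1 and Map7 (0.995 to 0.997), and Hpn most like Zfp961, Fgfr3 and Nhsl1 (0.991 to 0.996). Spint1 was most like Arpc1a, Cdk5rap2 and 2610507B11Rik (0.995 to 0.997). Among the members themselves, Prss8 and Spint1 had an r of 0.986 and Tmprss4 and Hpn the lowest, 0.515.

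A related list held 20 membrane-anchored serine proteases outside the member group. Of these, 15 had a probe set, 7 were bright enough to be tested and 2 were higher, with a median change of 0.20. Beside this list and those below, 9.21% of all genes tested were higher and 11.3% lower, with a median change of 0.04. Tmprss11a, of the airway trypsin-like branch, had log2 levels of 13.74, 12.69 and 12.97 in DsRed-positive arrays 1, 2 and 5 against 8.56, 9.47 and 6.20 in DsRed-negative arrays, a change of 5.06 ± 0.80 (adjusted p = 0.00487). Tmprss13, a protease of skin and other barrier epithelia, had 13.90, 14.04 and 14.70 against 10.57, 7.68 and 10.69, a change of 4.56 ± 0.80 (adjusted p = 0.00744). In each case the groups did not overlap and 1 DsRed-negative array lay at or below the control level. Without both arrays numbered 1 neither passed (adjusted p = 0.0792 and 0.0611). Tmprss5, Tmprss6, Prss21, Prss41 and Prss55 had changes from -0.25 to 0.44 and did not pass.

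The other Kunitz-domain genes divided differently from Spint1 and Spint2. Of 15 listed, 9 were tested, of which 1 was higher, 5 were lower and 3 did not pass, with a median change of -2.01. The collagen chain Col6a3 changed by -6.82 ± 0.41 (adjusted p = 1.01e-04). Tfpi, the inhibitor of tissue factor, changed by -4.86 ± 0.44 (adjusted p = 4.49e-04) and its relative Tfpi2 by -3.76 ± 0.42 (adjusted p = 0.00101). Wfikkn2 was at least 2.65-fold lower with all arrays (adjusted p = 0.0172) but did not pass once DsRed-positive array 1 was omitted (adjusted p = 0.0542), and the anchoring-fibril collagen Col7a1 changed by -2.01 ± 0.33 (adjusted p = 0.00580). Ambp, the precursor of bikunin, was at least 1.40-fold higher (adjusted p = 0.00557), because its DsRed-negative signals lay at or below the control level. It passed the filter on dim probe sets through its DsRed-positive signal, and Wfikkn2 passed through its DsRed-negative signal. The amyloid precursor gene App (-0.04) and its relative Aplp2 (0.22), which carry Kunitz domains in some isoforms, did not pass. Without both arrays numbered 1, Col6a3, Tfpi and Tfpi2 were called lower and none was called higher. The fibroblast markers, which were lower in the same arrays, are given above, and their part in these decreases was not tested.

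Among the other protease-activated receptors, F2r, the thrombin receptor, was lower in DsRed-positive cells. It had log2 levels of 11.42, 13.48 and 11.64 in DsRed-positive arrays 1, 2 and 5 against 16.88, 16.79 and 16.76 in DsRed-negative arrays, a change of -4.63 ± 0.56 (adjusted p = 0.00146), and the call held without both arrays numbered 1. F2rl2 had a change of -0.33 and did not pass, and F2rl3 was too dim to be tested.

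Of 13 genes listed as substrates of these proteases and their receptors, 12 were tested, 5 were higher and 7 did not pass, with a median change of 0.75. Scnn1g, the gamma subunit of the epithelial sodium channel that prostasin cuts, was the largest of these, at 11.33, 10.75 and 11.25 against 8.03, 6.44 and 6.46, a change of 4.13 ± 0.50 (adjusted p = 0.00148). Its signal lay at or below the control level on 2 DsRed-negative arrays. The gene passed the filter on dim probe sets through its DsRed-positive signal. The alpha subunit Scnn1a (-0.22) and the beta subunit Scnn1b (0.91) did not pass. Epcam, an adhesion molecule that matriptase cuts, rose by 3.19 ± 0.37 (adjusted p = 0.00126) on its brightest probe set, while its second probe set had a value of -0.98. Cdcp1, a transmembrane protein cut by matriptase, rose by 3.14 ± 0.46 (adjusted p = 0.00330).

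The growth factor arm of the list was less uniform. Mst1, which encodes the ligand of the receptor gene Mst1r, rose by 2.34 ± 0.49 (adjusted p = 0.0166), and Mst1r had a change of -0.96 (adjusted p = 0.0891). Hgf (-0.61), its receptor gene Met (0.43) and the activator Hgfac (0.59) did not pass. The urokinase receptor gene Plaur rose by 1.54 ± 0.41 (adjusted p = 0.0407), a call lost in 10 of 15 alternatives, among them each of the 6 fits without 1 array. The urokinase gene Plau had a change of -1.78 (adjusted p = 0.132) on its brightest probe set, and its other probe set was called lower at -2.71. The call of Mst1 was lost without DsRed-positive array 1 or 5. Without both arrays numbered 1, Epcam, Cdcp1 and Scnn1g were the genes of this list called higher.

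Of 7 serpins that inhibit trypsin-like proteases, 3 were tested and none passed. Their changes were 1.35 for Serpinb2, 0.26 for Serpinb6a and 0.15 for Serpinc1. Serpinb2 had 2.33 and passed without DsRed-positive array 5 (adjusted p = 0.0340), which read 6.53 against 9.87 and 9.34 in the other DsRed-positive arrays.

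**Figure D5:**
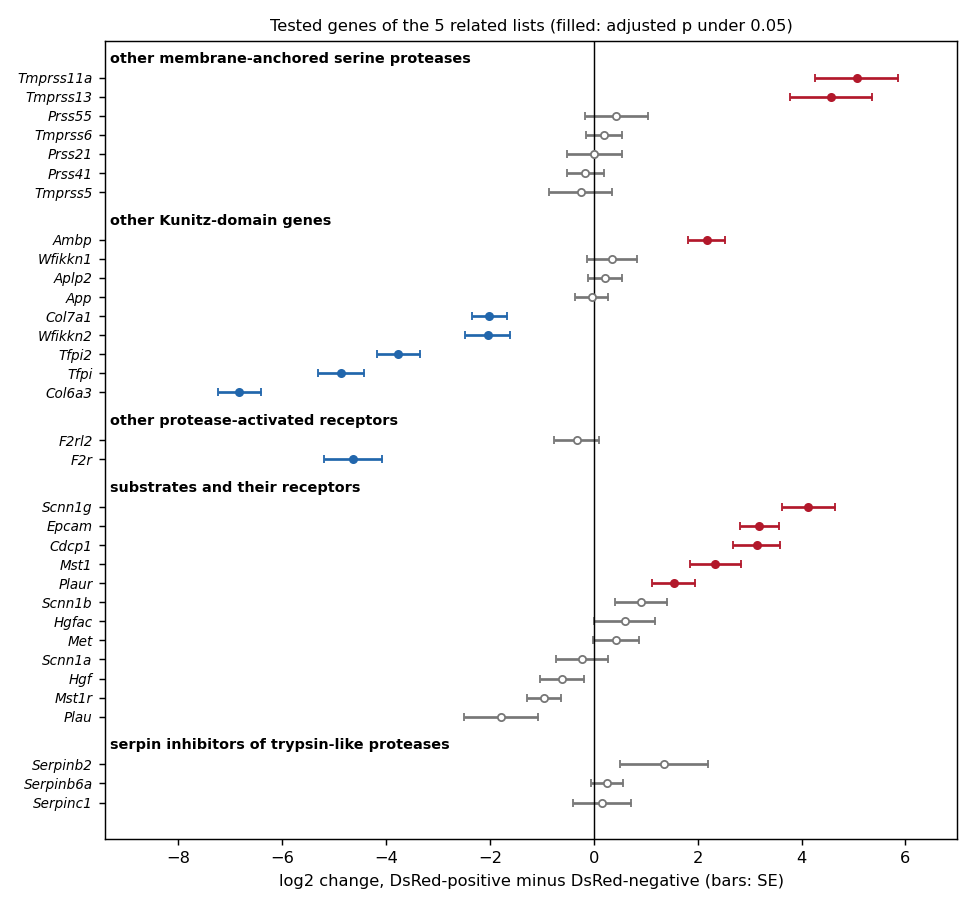
Log2 change, DsRed-positive minus DsRed-negative (x axis, bars are SE), of the tested genes of the 5 related lists (y axis), filled red where called higher and filled blue where called lower. Tmprss11a (5.06) and Tmprss13 (4.56) lie farthest to the right and Col6a3 (-6.82) farthest to the left.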

How the data were processed

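RNA of 6 samples was read on Affymetrix mouse arrays. The deposited values are linear probe set intensity, scaled by the authors: per the submitters' processing notes GCOS was used, with version and settings not given in the sources used here, and the mean after trimming 2% at both ends is 1500.01 on every array. An offset of 39.84 (20th percentile of all values) was added, log2 taken and, since array medians spanned 0.74, quantile normalization applied. The offset compresses folds of dim probe sets. After removal of 64 controls, limma was run on the 30175 probe sets whose mean exceeded 7.18 (33rd percentile), with R 4.3.3 and limma 3.58.1 (lmFit, eBayes, two-sided), a script tested on simulated data. Symbols came from the platform annotation, updated through gene IDs: 34945 probe sets had 1 symbol, 932 several and 9160 none. A gene was represented by its brightest single-gene probe set. The control level of an array was taken from 27 unspiked control probe sets, at their 95th percentile; where a whole group lay at or below it, a fold is a bound. Named were all members, up to 4 called genes of each list with the smallest p, and the 3 genes most like each member; other list genes were named after their values were seen. Members and lists were chosen with earlier results of these data known. Alternatives were the scaling, offset, filter, variance model, replicate block, probe set rule and arrays left out. Same-numbered arrays' deviations correlated at 0.04 to 0.15, and those of differently numbered arrays at -0.08 to 0.01. The main fit did not take the numbers as pairs, and a fit with the number as a block is given below.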

Additional observations from a re-analysis of the deposited data

How the results depend on the processing

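No member or related gene changed direction between fits in which it was called in either. St14, Prss8, Prss22, Tmprss2 and Spint1 kept their calls in all 16. The called member genes numbered 6 to 8 and the member probe sets 9 to 11 in the fits without 1 array. They numbered 5 and 8 without both arrays numbered 1, a fit with fewer samples. Of all genes, 4.38% to 8.92% were called higher in the fits without 1 array and 3.48% without both arrays numbered 1. Related genes called higher numbered 8 with all arrays, 5 to 7 in the fits without 1 array, with 5 without DsRed-positive array 1, and 3 without both arrays numbered 1, with 6 to 8 under the other settings; lower ones numbered 6, 5 to 6 and 4. With the number as a replicate block, 7.5% of all genes were called higher. So were 7 member genes and 10 member probe sets, as without the block, and Plaur was lost (1.54, adjusted p = 0.0671). Each of the 6 arrays correlated best with its own number, a hint from the data and not the design. The scaling moved the median change of all genes to -0.17 with the values as deposited and to 0.37 with each array centred on its median, where higher genes numbered 1229 and 2558 against 1310, and made up 37.6% and 64.6% of called genes against 44.97%; 7 member genes were called under each. An offset at the 50th percentile lowered the change of Prss8 to 3.40. Ambp, close to the filter, was tested in 8 of 15 alternatives. Signal near the control level limits the members Prss8, Tmprss4 and Hpn, and related genes such as Scnn1g, Ambp and Wfikkn2.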
